A study of Mus musculus with 6 samples.

Results

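Circular RNAs (circRNAs) from 50 genes of Wnt and planar polarity signalling were examined in whole mouse ovaries. An exonic circle forms in back-splicing, where the end of an exon is ligated to the start of the same or an earlier exon of its host gene. Intronic circles, which were also listed, lie within an intron. The genes were a fixed list of names, and every circle whose host carries one of these names was taken. They gave 153 of the 27999 circles of the authors' catalogue, from 36 of the 50 genes. No circle was listed for the other 14. The study compared ovaries of C57BL/6 mice on postnatal day 5 (neonatal, n = 3) with ovaries at 6 weeks (adult, n = 3), after digestion of linear RNA with the exonuclease RNase R. No mutant, transgene or other treatment is named in the labels. The labels do not say whether a library came from a single animal or from pooled ovaries, so the spread between libraries may be technical in part.

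The authors' deposited table compares a group A with a group B. The sources used here do not tie the letters to the ages, so no difference is assigned to an age. Values of single libraries could not be tied to samples and are not given. How many libraries held a circle was read from the deposited p, taken to be that of an unequal-variance test, which is an assumption. For circles with values in both groups the number per group was in general not read. For them 2 or more libraries can mean 1 in each group. Where a named circle has the p that an unequal-variance test gives for 1 library in each group at its fold change, this is said. The tissue label was checked against the listed hosts. Circles were listed for 6 of 10 oocyte markers, 6 of 9 granulosa cell markers and 3 of 5 markers of theca cells and corpus luteum, and for 0 of 5 markers of oviduct and fat. Zp1, Nobox, Figla, Dazl, Fshr, Foxl2, Inhba, Cyp17a1 and Hsd3b1 had no listed circle. Among circles with values in 2 or more libraries, those of oocyte markers were higher in A in 7 of 7 and those of granulosa cell markers higher in B in 8 of 9, of which the authors marked 1. Those of theca cell and corpus luteum markers were higher in B in 3 of 3. Of all such circles in the catalogue 70.1% lay higher in A and 4.59% were marked, so the oocyte marker circles lay on the side to which the catalogue leans. These marker circles thus lay on different sides of the comparison, and their part in the results for Wnt and planar polarity genes was not tested. In whole ovaries, fewer cells of a type and less RNA per cell cannot be told apart.

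Wnt proteins are secreted lipid-modified ligands that bind Frizzled receptors. With the co-receptors Lrp5 and Lrp6 they block a destruction complex built on Apc and Axin, so that beta-catenin builds up and acts with Tcf and Lef factors in the nucleus. Planar polarity signalling uses Frizzled and Dishevelled with Vangl, Celsr and Prickle proteins to orient cells within a sheet. In the ovary, Rspo1 and beta-catenin are known for their role in female sex determination.

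The 3 circles marked as different by the authors came from Vangl1, Lrp6 and Celsr1, and all 3 were higher in group A. The authors marked a circle when its p was under 0.05 and its absolute log2 fold change at least 1. Vangl1 and Celsr1 encode transmembrane proteins of the planar polarity complex, and Lrp6 encodes a Wnt co-receptor. The 3 are 1.96% of the 153 circles, against 1.75% of all circles in the catalogue, so their share is near the background. Counting higher in A alone, the background is 1.23%. Among the 56 circles with values in 2 or more libraries they are 5.36%, against 4.59% of all such circles (3.22% counting higher in A alone, and 5.12% by p under 0.05 without the fold limit). No circle of the catalogue (0%) passed an adjusted p of 0.05. By the authors' deposited table the adjusted p was 0.522 for each of the 3, and the smallest over all circles was 0.425. The sources used here do not name the authors' test. The junctions of these 3 circles, 20 bases on each side, are shown because they are what a read must cross to count the circle. They are read 5′ to 3′ on the host strand from GENCODE M21 transcripts, with the end of the last exon in lower case and the start of the first exon in capitals.
Vangl1 circRNA2644, exon 4 to exon 4: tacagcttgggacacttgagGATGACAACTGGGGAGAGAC
Lrp6 circRNA2009, exon 7 to exon 3: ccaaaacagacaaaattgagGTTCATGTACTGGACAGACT
Celsr1 circRNA1211, exon 5 to exon 3: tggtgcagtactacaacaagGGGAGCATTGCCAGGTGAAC

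Vangl1 circRNA2644 was a circle of 1 exon with values in A only. It is exon 4 of 8 (GRCm38, chr3:102183951-102184558, minus strand), 608 nt of coding sequence, and lay between introns of 4850 and 16979 nt. The authors' deposited p was 0.00279, the smallest of the 153 circles. An unequal-variance test gives p = 0.423 when a single library of 6 holds a value, and no less than 0.184 when exactly 2 libraries of 1 group do. Under such a test the circle had a value in all 3 libraries of group A. Read the same way, its p corresponds to an SD of 9.17% of the group A mean (n = 3). Another Vangl1 circle of the authors' deposited table, circRNA18455 of exons 2 to 4, ends at the same donor and had values in both groups, at a log2 fold change of 0.45 (p = 0.84). Under an unequal-variance test the p of circRNA18455 is that of a single library in each group. The other 3 Vangl1 circles each had their value in 1 library, in A. The GC content of the exon is 53.3%.

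Celsr1 had a single listed circle, circRNA1211, also with values in A only. It joins exons 3 to 5 of 35 (chr15:85959128-85963306, minus strand) and holds 428 nt of coding sequence between introns of 15295 and 17853 nt. The authors' deposited p was 0.0412. Under an unequal-variance test this p also needs a value in all 3 libraries of group A, with an SD of 36.3% of their mean, a wider spread than for the Vangl1 circle. No circle was listed for Celsr2, a paralog with 34 exons, or for Vangl2.

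Of the 14 planar polarity circles 5 had values in 2 or more libraries, and all 5 were higher in A, the 2 marked ones among them. Of the 5, Vangl1 circRNA18455 and Prickle1 circRNA6888 have the p of 1 library in each group under an unequal-variance test. Read so, their direction rests on 1 value per group. Prickle1, which encodes a cytoplasmic LIM domain protein of the complex, had circRNA6888 (exons 3 to 5) at a log2 fold change of 0.73 by the authors' deposited table (p = 0.754). Prickle2 circRNA1951 (exons 4 to 7) had values in A only by the authors' deposited table (p = 0.187). Daam1 and Daam2, which encode formins that act below Dishevelled, had 1 and 2 circles, each with a value in a single library. Of all circles in the catalogue with values in 2 or more libraries, 70.1% lay higher in A, so a lean toward A is common to the catalogue.

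**Figure D1:**
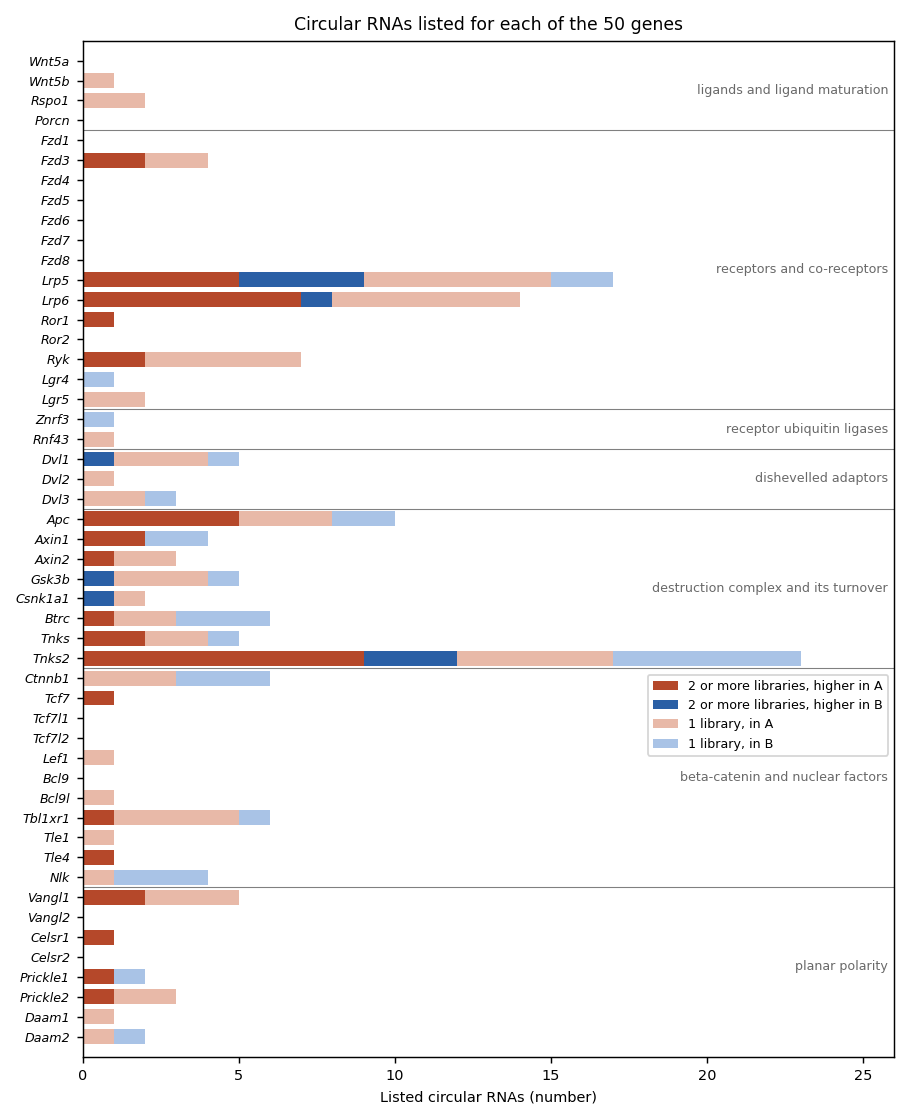
Number of listed circles (horizontal axis) for each of the 50 genes (vertical axis), grouped by role. Colours give the number of libraries with a value and the group with the higher mean by the authors' deposited fold change. Tnks2 (23), Lrp5 (17), Lrp6 (14), Apc (10) and Ryk (7) had the most, and 14 genes had none.

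Receptors and co-receptors gave 46 circles from 7 of 14 genes, 31 of them from Lrp5 and Lrp6. Of the 22 with values in 2 or more libraries, 17 lay higher in A and 5 in B. Lrp6 had 14 circles at 8 acceptor and 10 donor sites. The marked Lrp6 circle, circRNA2009, joins exons 3 to 7 of 23 (chr6:134506196-134520593, minus strand, 1096 nt of coding sequence). Its log2 fold change by the authors' deposited table was 2.40, that is 5.27-fold higher in A (p = 0.0351). The donor of exon 7 was joined to the acceptors of exons 2, 3, 4 and 6. These 4 circles hold from 569 to 1490 nt, and their junctions are shown together because they share the donor and differ in the acceptor.
Lrp6 circRNA17093, exon 7 to exon 2: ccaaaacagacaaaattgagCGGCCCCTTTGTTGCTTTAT
Lrp6 circRNA2009, exon 7 to exon 3: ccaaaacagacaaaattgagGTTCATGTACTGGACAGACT
Lrp6 circRNA2010, exon 7 to exon 4: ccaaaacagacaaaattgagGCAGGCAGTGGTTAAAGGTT
Lrp6 circRNA8880, exon 7 to exon 6: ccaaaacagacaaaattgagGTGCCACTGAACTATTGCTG
All 4 had values in both groups and all 4 were higher in A, but by unequal amounts. By the authors' deposited table circRNA17093 stood at 0.28 (p = 0.897), circRNA2010 at 0.68 (p = 0.246) and circRNA8880 at 0.79 (p = 0.738) on the log2 scale, against 2.40 for circRNA2009. Values in both groups can mean 1 library in each. For circRNA17093 and circRNA8880 the p is that of 1 library in each group at their fold change, under an unequal-variance test. Read so, the direction of each rests on 1 value per group. The differences among the 4 were not tested. These 4 circles share a donor and exons 6 and 7, so they are not independent.

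The other Lrp6 circles with values in 2 or more libraries were not marked. The circle of exon 2 alone, circRNA2012, stood at a log2 fold change of 0.10 by the authors' deposited table (p = 0.777), and circRNA8877 of exons 8 to 12 at 0.50 (p = 0.686). Lrp6 circRNA8878 (exons 8 to 10) had values in A only by the authors' deposited table (p = 0.184). The only Lrp6 circle higher in B was circRNA8881 of exons 2 and 3, at -0.32 by the authors' deposited table (p = 0.884). Under an unequal-variance test this p is that of 1 library in each group, so its side is uncertain. The other 6 each had their value in 1 library, in A.

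Lrp5, the paralog of Lrp6, had 17 circles, split between the groups. Of its 9 circles with values in 2 or more libraries 5 lay higher in A and 4 in B, and whether this split differs from that of Lrp6 was not tested. The 8 with values in both groups ran from a log2 fold change of -1.49 (circRNA15864, exons 13 to 17, p = 0.21) to 0.41 (circRNA1378, exons 2 to 5, p = 0.588) by the authors' deposited table. The remaining one, circRNA21090 of exons 10 and 11, had values in B only by the authors' deposited table (p = 0.184). Its circles used 10 acceptor and 12 donor sites between exons 2 and 18, and none reached the last 5 of 23 exons. Of Lrp5 the donor of exon 17 was used most, by 4 circles that start at exons 10, 13, 14 and 16.

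Lrp5 and Lrp6 gave 4 pairs of circles with the same exon numbers. This was noticed after the circles were listed and was then counted for 11 pairs of related genes. Tnks with Tnks2 and Axin1 with Axin2 shared 1 circle each, and the other 8 pairs (Prickle1 with Prickle2, Daam1 with Daam2, the 3 pairs of Dvl genes, Tle1 with Tle4, Lgr4 with Lgr5, Znrf3 with Rnf43) shared none. The genes of these 8 pairs had 0 to 3 exonic circles each, against 17 for Lrp5 and 14 for Lrp6. Few matches were thus possible, and none with Lgr4, which had no exonic circle. Lrp5 and Lrp6 both have 23 exons on the named isoforms. The shared circles were those of exon 2, of exons 2 and 3, of exons 6 and 7 and of exons 14 and 15. Their lengths were 397 and 394 nt, 595 and 592 nt, 569 and 569 nt, and 400 and 403 nt, with Lrp5 first. The aligned exons were identical at 64.5%, 66.4%, 71.0% and 64.2% of positions. The junctions of exon 2 and of exons 6 and 7 are shown to compare the genes, since both circles of each pair had values in both groups.
Lrp5 circRNA7310, exon 2 to exon 2: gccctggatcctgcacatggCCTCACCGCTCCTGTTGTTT
Lrp6 circRNA2012, exon 2 to exon 2: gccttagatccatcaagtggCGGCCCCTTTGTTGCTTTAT
Lrp5 circRNA15868, exon 7 to exon 6: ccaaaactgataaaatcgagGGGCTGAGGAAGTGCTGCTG
Lrp6 circRNA8880, exon 7 to exon 6: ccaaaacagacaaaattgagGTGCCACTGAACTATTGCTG
The exon 2 junctions matched at 24 of 40 bases and those of exons 6 and 7 at 29 of 40. For exon 2 both circles lay near 0 by the authors' deposited table, Lrp5 circRNA7310 at -0.07 (p = 0.932) and Lrp6 circRNA2012 at 0.10 on the log2 scale. For exons 6 and 7, Lrp5 circRNA15868 stood at 0.23 (p = 0.917) and Lrp6 circRNA8880 at 0.79 by the authors' deposited table. Under an unequal-variance test the p of both these circles is that of 1 library in each group, so their difference is uncertain.

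**Figure D2:**
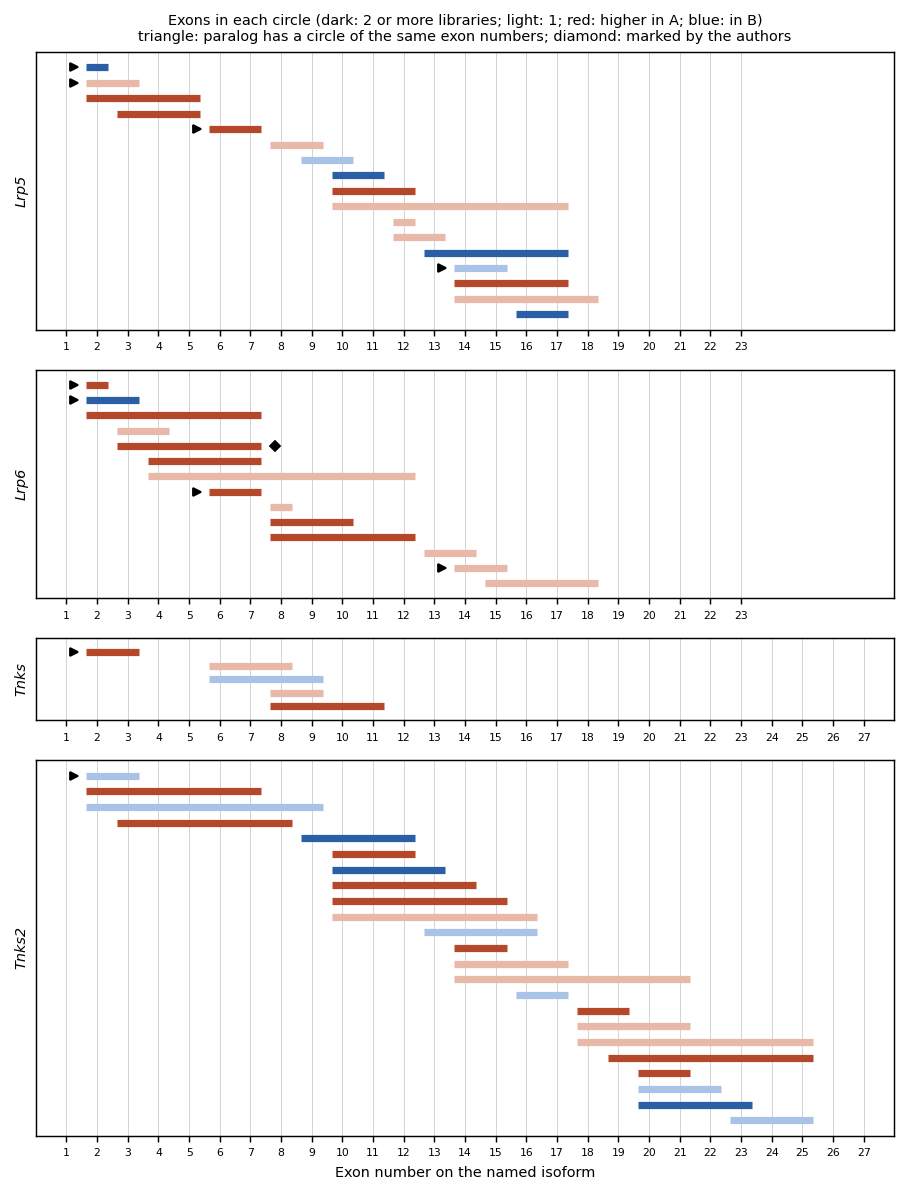
Exons held by each circle of Lrp5, Lrp6, Tnks and Tnks2, drawn by exon number on the named isoform (horizontal axis), 1 bar per circle. Dark bars had values in 2 or more libraries and light bars in 1, red bars were higher in A and blue bars in B. Triangles mark the 4 circles of each Lrp gene and the 1 circle of each tankyrase gene whose paralog has a circle of the same exon numbers, and the diamond marks Lrp6 circRNA2009.

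Among the other receptors the Frizzled genes were nearly absent. Fzd3 was the only one of 7 Frizzled genes with a listed circle. It had 4 circles, 2 of them with values in 2 or more libraries, namely circRNA1325 of exons 5 and 6, at a log2 fold change of 1.33 by the authors' deposited table (p = 0.118), and circRNA7155 of exons 2 and 3, which holds the start codon, in A only (p = 0.186). Ryk, which encodes a Wnt-binding receptor related to tyrosine kinases, had 7 circles, all in A only. Of these, 2 had values in 2 or more libraries by the authors' deposited table, circRNA12462 (p = 0.195) and circRNA12465 (p = 0.196), and 4 of the 7 start at exon 2. Ror1, a receptor tyrosine kinase gene for Wnt5a, had 1 circle, circRNA2407 of exons 5 to 7, at 0.93 on the log2 scale by the authors' deposited table (p = 0.141). Its paralog Ror2 had none. Lgr5, a receptor gene for R-spondins, had 2 circles in a single library each, both in A, and Lgr4 had 1 intronic circle in a single library, in B.

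Ligands and the ligases that remove receptors gave few circles, all with a value in a single library. Wnt5b had 1 circle and Rspo1 had 2, all in A, while Wnt5a and the Wnt acyltransferase gene Porcn had none. Znrf3 and Rnf43 encode transmembrane ubiquitin ligases that take Frizzled receptors off the cell surface. Znrf3 circRNA23770 joins exons 2 to 8 of 9 and was the longest of the 141 exonic circles, at 2413 nt. Its single value was in B, whereas the single Rnf43 circle was in A.

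The destruction complex and the enzymes that turn it over gave 58 circles, the most of any role, from all 8 genes. Of the 25 with values in 2 or more libraries, 20 lay higher in A and 5 in B, and none was marked. Tnks and Tnks2 encode tankyrases, which tag Axin for breakdown. Tnks2 had the most circles of the 50 genes, 23 at 11 acceptor and 15 donor sites on 27 exons. Of the 9 of these with values in both groups, 6 were higher in A and 3 in B, and they ran from -0.61 (circRNA15991, p = 0.702) to 1.63 (circRNA7417, p = 0.343) on the log2 scale by the authors' deposited table. The acceptor of Tnks2 exon 10 was used by 5 circles, the most for any splice site of these genes. Their junctions share the capital letters and differ in the donor.
Tnks2 circRNA1426, exon 12 to exon 10: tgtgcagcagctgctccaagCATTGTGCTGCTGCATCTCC
Tnks2 circRNA15991, exon 13 to exon 10: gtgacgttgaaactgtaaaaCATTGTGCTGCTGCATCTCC
Tnks2 circRNA7414, exon 14 to exon 10: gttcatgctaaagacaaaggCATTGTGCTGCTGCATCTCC
Tnks2 circRNA7415, exon 15 to exon 10: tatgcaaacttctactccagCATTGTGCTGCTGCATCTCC
Tnks2 circRNA15992, exon 16 to exon 10: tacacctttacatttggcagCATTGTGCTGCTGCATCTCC
These 5 circles did not share a direction. By the authors' deposited table circRNA1426 stood at 0.09 (p = 0.852), circRNA15991 at -0.61 and circRNA7414 at 0.53 (p = 0.643) on the log2 scale. The authors' deposited table gives circRNA7415 in A only (p = 0.185), and circRNA15992 had its value in 1 library, in A.

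Tnks had 5 circles, and 1 of them, of exons 2 and 3, matched a Tnks2 circle in exon numbers and in length (321 nt each). The pair was identical at 76.3% of positions and at 33 of 40 junction bases, the highest of the related pairs.
Tnks circRNA12688, exon 3 to exon 2: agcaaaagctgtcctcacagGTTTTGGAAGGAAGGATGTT
Tnks2 circRNA24552, exon 3 to exon 2: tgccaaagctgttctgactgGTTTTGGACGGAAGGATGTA
Tnks circRNA12688 stood at a log2 fold change of 0.98 by the authors' deposited table (p = 0.537), and Tnks2 circRNA24552 had its value in 1 library, in B. Tnks circRNA3508 (exons 8 to 11) stood at 0.01 by the authors' deposited table (p = 0.98).

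Apc, the scaffold gene of the destruction complex, had 10 circles, and all 5 that had values in 2 or more libraries lay higher in A. Nearest to the authors' limit was circRNA1522 (exons 6 to 9 of a 14-exon isoform), 4.67-fold higher in A by the authors' deposited table (log2 fold change 2.22, p = 0.0538). It was not marked. Apc circRNA1521, which holds the start codon in exons 2 to 7 of 16, stood at 1.63 (p = 0.166) by the authors' deposited table. The other 3 were circRNA7636 at 0.72 (p = 0.552), circRNA16165 at 0.62 (p = 0.786) and circRNA7635 in A only (p = 0.211) by the authors' deposited table. Under an unequal-variance test the p of circRNA16165 is that of 1 library in each group.

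Axin1 and Axin2 encode the scaffold that limits the complex, and Axin2 is also a known target of Wnt signalling. Both gave a circle of exon 2 alone, which holds the start codon, of 959 nt in Axin1 and 951 nt in Axin2. These 2 circles were aligned at 57.1% identity. Axin1 circRNA5923 had values in A only by the authors' deposited table (p = 0.185), and Axin2 circRNA14245 had a value in a single library, also in A. Axin2 circRNA5319, which adds exon 3, had values in A only by the authors' deposited table (p = 0.185). Axin1 circRNA5924 (exons 4 and 5) stood at 1.72 on the log2 scale by the authors' deposited table (p = 0.299).

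The kinase and ligase genes of the complex had 1 circle each with values in both groups, none of them marked. Gsk3b, the kinase gene that marks beta-catenin for breakdown, had 5 circles, and circRNA1050 of exons 9 and 10 stood at -0.16 by the authors' deposited table (p = 0.893). Csnk1a1, which encodes the priming kinase, had circRNA7746 at -0.09 by the authors' deposited table (p = 0.916). Btrc encodes the ubiquitin ligase subunit that binds phosphorylated beta-catenin. Its circRNA7471 stood at 0.40 by the authors' deposited table (p = 0.681), and the other 5 Btrc circles had a value in a single library. Btrc circRNA24575 of exons 2 and 3 (chr19:45423133-45456610, plus strand) was the shortest of the 141 exonic circles, at 186 nt. It is printed whole to show what such a small circle holds, with the 20 bases at each end that meet in the junction in capitals.
Btrc circRNA24575: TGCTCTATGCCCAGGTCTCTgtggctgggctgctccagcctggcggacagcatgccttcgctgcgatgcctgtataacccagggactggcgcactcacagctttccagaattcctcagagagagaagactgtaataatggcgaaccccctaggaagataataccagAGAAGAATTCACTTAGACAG

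Dishevelled adaptors, which relay the signal from Frizzled, had mostly intronic circles. Of their 9 circles 6 were intronic, that is, they lie within an intron, and Dvl1 had 4 of these. In all 50 genes 12 of 153 circles (7.84%) were intronic, against 6.63% in the catalogue. Dvl1 ciRNA1206 (chr4:155854087-155854300, plus strand) had values in B only by the authors' deposited table (p = 0.194). Dvl1 ciRNA566 and ciRNA910 start at the same base (chr4:155855620) and end 1 nt apart (at 155856131 and 155856130). The former had its single value in A and the latter in B. Whether these are 2 molecules or 1 molecule listed with 2 ends was not tested, so no contrast between the groups is read from them.

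Beta-catenin and nuclear factors gave 21 circles from 8 of 11 genes, 18 of them with a value in a single library. Ctnnb1, the beta-catenin gene, had 6 circles, all in a single library, 3 in A and 3 in B. Tle4, a corepressor gene, had circRNA7360 (exons 9 to 14) at 2.73 by the authors' deposited table, the largest log2 fold change of the 40 circles with values in both groups, with p = 0.486. Under an unequal-variance test this p is that of 1 library in each group. The size of the change is thus uncertain. Tbl1xr1, which encodes a subunit of a corepressor complex, had 6 circles. One of them, circRNA18256, joins 12 exons (3 to 14 of 16), the most of the 141, and circRNA10328 (exons 11 to 14) had values in A only by the authors' deposited table (p = 0.191). Tcf7, which encodes a T cell factor, had a single intronic circle, ciRNA313, at 0.22 by the authors' deposited table (p = 0.919). The p of ciRNA313 is also that of 1 library in each group under such a test. Nlk, a kinase gene that acts on Tcf and Lef factors, had 4 circles in a single library each, 3 of them in B. Lef1, Tle1 and Bcl9l had 1 circle each in a single library, and Tcf7l1, Tcf7l2 and Bcl9 had none.

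**Figure D3:**
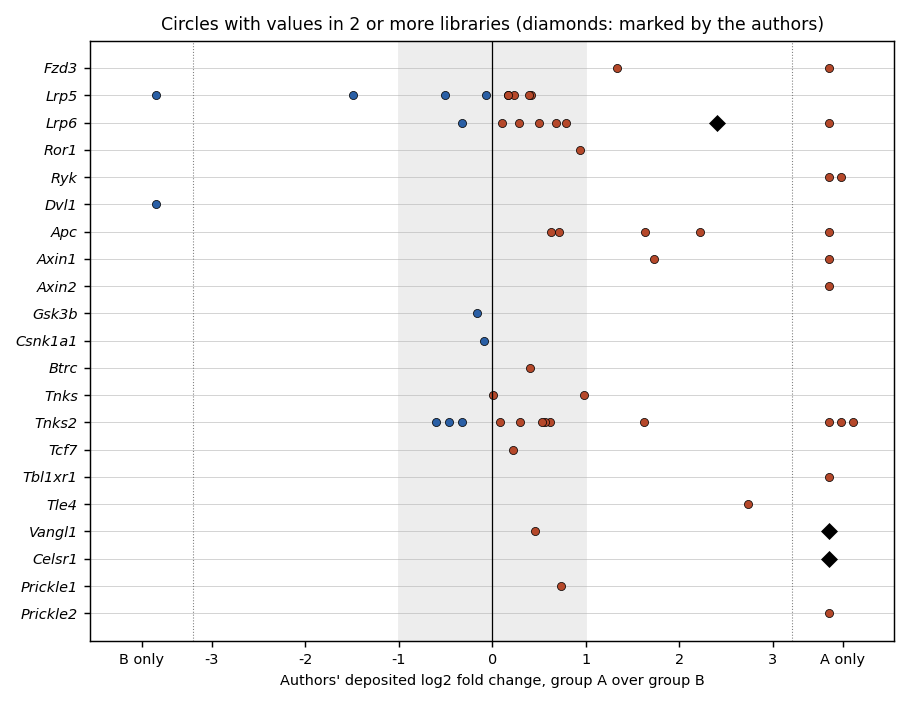
The authors' deposited log2 fold change of group A over group B (horizontal axis) for the 56 circles with values in 2 or more libraries, by host (vertical axis), 1 point per circle. Circles with values in 1 group only stand at the edges, diamonds are the 3 marked circles, and the grey band holds fold changes below the authors' limit. Of the 40 circles with values in both groups 32 lie inside the band.

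Over all roles, 45 of the 56 circles that had values in 2 or more libraries lay higher in A (80.4%), against 70.1% in the catalogue. Among the 40 with values in both groups 31 were higher in A (77.5%, against 67.3% in the catalogue). Their median log2 fold change was 0.41 by the authors' deposited table, against 0.42 over other such circles. Their median absolute log2 fold change was 0.50, against 0.73. Of the 21 hosts that had circles with values in 2 or more libraries, 15 had all of them higher in A, 3 had all higher in B (Dvl1, Gsk3b and Csnk1a1, with 1 circle each), and Lrp5, Lrp6 and Tnks2 had both. A value in a single library was all there was for 97 of the 153 circles (63.4%, against 62.0% in the catalogue). Of these 67 were in A and 30 in B, where the catalogue had 11022 in A and 6333 in B. No other kind was listed for 15 of the 36 hosts. The counts of hosts were not made for the catalogue.

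Genes without a listed circle were in part those with few exons. Of the 50 genes, 5 have at most 2 exons in any coding transcript of the GENCODE M21 basic set, and none of these had a circle. Fzd1, Fzd7 and Fzd8 have 1 exon, and Fzd4 and Fzd5 have 2. Among all coding genes with 1 or 2 exons, 15 of 3433 (0.437%) had a listed circle. Of the 45 genes with 3 or more exons, 36 had one (80.0%), against 7036 of 18442 coding genes matched by symbol (38.2%). The list was drawn up with the catalogue known, so its share is not evidence of enrichment. The other 9 genes without a circle have from 5 exons (Wnt5a) to 34 (Celsr2), with Fzd6, Ror2, Vangl2, Bcl9, Tcf7l1, Tcf7l2 and Porcn between them. The number of reads limits the listing of low circles, and depth could not be tied to samples here, so a circle that is not listed may still be present.

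All 141 exonic circles were placed on their named isoforms. They held a median of 3 exons, as in the catalogue, and 111 (78.7%) held 5 or fewer, against 80.0% of other circles. Exonic length had a median of 569 nt (with quartiles at 368 and 806 nt), against 468 nt (327 and 709) for the other circles of the catalogue. A single exon made up 12 of them (8.51%, against 5.03%). Exon 2 was the first exon of 32 (22.7%, against 23.4%), and none held exon 1 or the last exon. Coding sequence only was held by 127 (90.1%, against 82.2%), and the other 14 held the start codon. Circles of the same host often shared a splice site, as 103 of the 141 did, so they are not independent.

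By their medians, introns beside the circles exceeded the rest of the introns on the same isoforms in 33 of 34 hosts (97.1%), against 89.5% of other hosts. Over the circles, the mean of upstream and downstream intron had its median at 5304.5 nt, against 5624.5 nt for other circles. Taken as a median over hosts the order turned, at 5946 nt against 4495 nt for other hosts. The median ratio over hosts was 4.35, against 2.84. For all 3 marked circles both flanking introns were longer than the median of the other introns, which was 4801 nt for Vangl1, 1783.5 nt for Lrp6 and 828.5 nt for Celsr1. The introns beside Lrp6 circRNA2009 measured 21058 and 19524 nt. Nlk was the host in which the flanking introns were not longer (3835.5 against 4407 nt). Circles between short introns were also listed. Ctnnb1 circRNA12595, which is exon 4 alone, lies between introns of 144 and 119 nt, and Dvl2 circRNA13983 between introns of 294 and 129 nt.

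**Figure D4:**
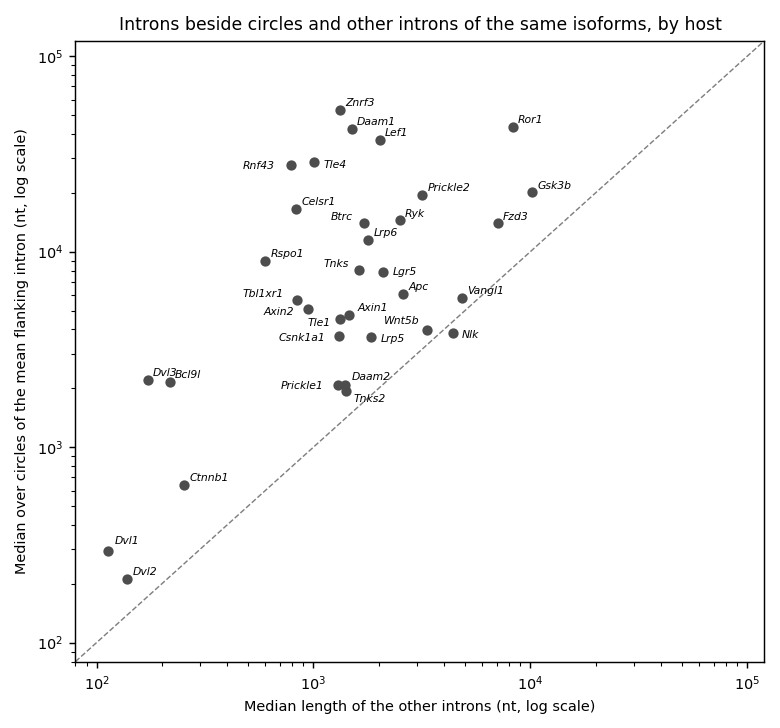
Median over the circles of a host of the mean length of their 2 flanking introns (vertical axis, nt, log scale) against the median length of the other introns of the same isoforms (horizontal axis, nt, log scale), 1 point per host. The dashed line marks equal lengths, and 33 of the 34 hosts lie above it, with Nlk below.

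Other genes of the same pathways were taken as 6 lists of 86 genes. They had 219 circles from 38 genes, and 62 of the 79 that had values in 2 or more libraries lay higher in A, where 70.1% of such circles in the catalogue did. The authors marked 1 of these 219 circles, where 1.75% of all circles (4.59% of those with values in 2 or more libraries) were marked. It was Cul1 circRNA1895 (exons 2 to 4), which had values in A only by the authors' deposited table (p = 0.000386, adjusted p = 0.522). Cul1 encodes the scaffold of the ubiquitin ligase that Btrc belongs to. Of 22 other Wnt ligand and secretion genes 4 had a circle, and of 13 secreted inhibitor genes and their receptors 1 had, namely Kremen1. Circles were listed for 12 of 17 other cytoplasmic components, 8 of 12 nuclear components and 11 of 16 planar polarity components, and for 2 of 6 other receptors. The differences between these lists were not tested, and the lists were not matched for exon number.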

How the data were processed

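Libraries of RNase R-treated total ovary RNA were sequenced as paired ends, per the labels' protocols. Bowtie 0.12.2 and GRCm38 appear in the submitters' processing notes without their use. What called the circles, with which filters and annotation, is not stated by the sources used here. There were 2 deposited tables of 27999 circles (1 line of each left out here). The authors computed, per the file headers, a log2 fold change of group A over group B (infinite for circles with values in 1 group only), a p-value and an adjusted p-value. These, the exon numbers and the positions were used as deposited. The 24 columns of values per library and 2 of group means match no sample label and were not used. Their first rows, none of a reported gene, were seen on opening the files. Depth per library is therefore not given.

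Both ends of each exonic circle were matched to exon ends of its named isoform in GENCODE M21 (GRCm38), with Python 3.11.15, pandas 2.3.3 and scipy 1.17.1. Junctions came from the M21 transcripts. Paralog exons were aligned globally with Biopython 1.88. A single library was taken to hold a circle's value where the authors' deposited p was that of such a case under an unequal-variance test (0.423, tolerance 1e-09). The arithmetic of this reading was tested on simulated data drawn under that same test, which does not bear on whether the authors used it. No comparison of groups beyond the authors' was run.

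The genes, lists and measures were chosen with earlier results of these data known. All 50 genes were accounted for. Single circles were named where p was under 0.05, where p was the smallest of a host among circles not read as held by a single library, and where length or exon number was extreme. Circles of the 5 hosts with the most could also be named, and not all of them were. Circles named for a shared splice site, the same exon numbers as in a paralog, or nearly equal ends, and a few further ones with values in 2 or more libraries, were picked after their values were seen.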

Additional observations from a re-analysis of the deposited data

How the results depend on the processing

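Of the 3 marked circles, 1 (Vangl1) passed a deposited p under 0.01 and 1 (Lrp6) had values in both groups. By the authors' adjusted p under 0.05 the count was 0, as for all circles, against 3 at an unadjusted p under 0.05. Without the fold limit it stayed at 3. The share of circles higher in A was 73.2% with single-library circles included and 77.5% with values in both groups. It was 81.5% for exonic circles and 85.7% with 1 vote per host. Without the 5 hosts with the most circles, an alternative chosen after seeing the data, it was 85.0%. In the catalogue the share was 70.1% with values in 2 or more libraries and 67.3% with values in both groups. It was not computed there under the other settings, so those member shares have no background. Hosts with a circle fell from 36 to 21 when values in 2 or more libraries were required, and older symbols added none. The median flanking intron was 7336 nt by the longer of both introns (7787 nt for other circles), 7036 nt with values in 2 or more libraries (8672 nt for other circles) and 5946 nt over hosts (4495 nt for other hosts). The cause of these shifts was not tested, other than that each setting keeps other circles or introns.

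No paired analysis was possible because the columns of values per library carry letters that match no sample label. Leaving out each replicate was not run, because these columns were not used. The depth of each library is not known here.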

Other observations

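The reading frame of the host was followed around the 127 circles that hold coding sequence only. In 46 of them (36.2%, against 39.5% of other circles) the exonic length is divisible by 3, and in all 46 the host frame then ran around the circle with no stop codon. In the other 81 the frame shifts at the junction, and a stop codon was met within 3 turns in each. Both outcomes were largely set in advance. Coding exons hold no stop in the host frame, and 3 turns with a shifted frame pass through every frame. None of the 3 marked circles has a length divisible by 3. Translation was not measured.

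The authors' table also labels hosts with KEGG pathways. Its Wnt signalling label was carried by 72 hosts, 20 of them among the 36 hosts described here. The 52 others had 215 circles, and 57 of the 79 that had values in 2 or more libraries lay higher in A (72.2%, against 70.1% in the catalogue). The authors marked 3 of the 215, 2 of them higher in A, where 1.75% of all circles (4.59% of those with values in 2 or more libraries) were marked.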
